A study of Homo sapiens with 6 samples.

Results

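The cytochrome P450 family was followed across RNA-Seq libraries of the C4-2B model of enzalutamide resistance. Members were the rows of the expression table whose gene symbol had the form CYP, a family number, a subfamily letter and a gene number, leaving out a few that are not reported here. This gave 53 of the 58024 genes in the table. The rule used the name alone and no measured value.

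C4-2B is an established prostate cancer cell line, a bone metastatic derivative of LNCaP that grows without testicular androgen. C4-2B parental cells (3 libraries) had been kept in the vehicle, dimethyl sulfoxide, which the sample labels give as 1%. The authors' paper states an upper limit for the vehicle that is below this value. C4-2B enzalutamide resistant cells (3 libraries) had been passaged in enzalutamide, an androgen receptor antagonist, raised from 1 to 20 µM over at least 6 months and then kept in 5 µM. The resistant cells were a pool of the survivors of selection and not a clone. The protocol also names exposure to 10 µM enzalutamide before RNA extraction, without making clear whether the parental cells received it. No source used here says that the libraries came from separate cultures, so the p-values measure the spread between these libraries, which may be technical. Values are given below in the order of libraries 0, 1 and 2 of each group.

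Cytochromes P450 are haem enzymes that insert an oxygen atom into fats, steroids, vitamins and drugs. Most sit in the endoplasmic reticulum and take electrons from POR, and a smaller set in mitochondria takes them from FDXR through FDX1. Families CYP1 to CYP3 clear drugs and pollutants, mostly in liver. CYP4 and a few others hydroxylate fatty acids and eicosanoids, and the remaining families serve bile acids, steroid hormones and vitamins A and D. The AHR receptor, which binds aromatic ligands and pairs with ARNT, is the classical inducer of CYP1 genes. Enzalutamide itself is cleared in the liver mainly by CYP2C8 and CYP3A4.

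Expression was read in FPKM, fragments scaled to transcript length and to the mapped fragments of the library, so that levels can be compared between genes. A gene was tested when its mean over the 6 libraries was at least 0.1 FPKM, which 32 of the 53 members reached. Differences are log2 fold changes of FPKM + 0.1, resistant over parental, with standard errors (SE) and limma p-values adjusted by the Benjamini-Hochberg method over all 24468 genes tested. The pseudocount of 0.1 shrinks the fold changes of low genes. A difference was called at an adjusted p below 0.05. In the bulk RNA used here, fewer cells that express a gene and less RNA per cell cannot be told apart.

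The stretches before the start sites of 4 members are printed because these members form the pair that rose most and the pair that fell most. All are from RefSeq on GRCh38.p14, run 250 bases up to the annotated start in the direction of the gene, and have the core of the AHR binding site, GCGTG or its reverse complement CACGC, in capitals. The CYP1A1 stretch is chr15:74725529-74725778 on the minus strand, and that of CYP1A2 is chr15:74748595-74748844 on the plus strand. The CYP4F8 stretch is chr19:15614968-15615217 on the plus strand, and that of CYP4F11 is chr19:15934868-15935117 on the minus strand.
CYP1A1: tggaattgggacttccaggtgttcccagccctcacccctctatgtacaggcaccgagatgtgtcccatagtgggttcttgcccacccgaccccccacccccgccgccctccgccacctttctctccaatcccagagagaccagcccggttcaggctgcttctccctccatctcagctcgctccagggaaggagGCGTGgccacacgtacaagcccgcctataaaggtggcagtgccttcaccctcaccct
CYP1A2: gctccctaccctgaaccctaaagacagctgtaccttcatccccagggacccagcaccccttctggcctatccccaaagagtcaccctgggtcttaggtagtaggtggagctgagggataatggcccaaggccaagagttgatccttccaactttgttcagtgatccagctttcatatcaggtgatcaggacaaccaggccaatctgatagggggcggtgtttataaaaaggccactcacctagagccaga
CYP4F8: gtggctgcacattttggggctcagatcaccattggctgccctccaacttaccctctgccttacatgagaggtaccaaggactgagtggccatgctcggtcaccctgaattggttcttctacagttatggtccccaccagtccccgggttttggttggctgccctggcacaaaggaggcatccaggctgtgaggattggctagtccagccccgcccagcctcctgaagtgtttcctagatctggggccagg
CYP4F11: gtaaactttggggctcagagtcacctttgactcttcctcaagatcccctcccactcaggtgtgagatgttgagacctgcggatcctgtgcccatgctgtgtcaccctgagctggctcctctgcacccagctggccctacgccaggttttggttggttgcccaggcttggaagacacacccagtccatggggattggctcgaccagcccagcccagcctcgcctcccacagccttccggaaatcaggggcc
CYP1A1 held 1 such core, which began 57 bases before the start, and the CYP1A2, CYP4F8 and CYP4F11 stretches held none. The CYP4F8 and CYP4F11 stretches were 62.6% identical when aligned, against 42.4% for CYP1A1 and CYP1A2. Pairs of members from the same subfamily had a median identity of 50.5% (21 pairs, 32.3% to 96.0%), and pairs from different subfamilies 41.0% (609 pairs). CYP4F11 was 62.1% identical to CYP4F2, which was not called, so the likeness was not particular to the pair that fell most.

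As a family, the members had a lower summed FPKM in the resistant cells, mostly through the CYP4F genes. Their summed level was 102.2, 112 and 112 FPKM in parental cells and 64.1, 63.6 and 69.1 FPKM in resistant cells, or 109 ± 5.85 against 65.6 ± 3.06 FPKM (mean ± SD, n = 3 each). The 6 CYP4F genes made up 33.5, 40.1 and 43.6 FPKM of the parental sums and 2.00, 0.788 and 0.560 FPKM of the resistant sums. Without the CYP4F genes the sums were 69.9 ± 1.97 and 64.5 ± 3.56 FPKM. They were 68.7, 72.2 and 68.8 FPKM in parental cells and 62.1, 62.8 and 68.6 FPKM in resistant cells. These sums without CYP4F did not overlap between the groups, but resistant library 2 lay close to the lowest parental library. All sums here are of FPKM without further scaling. Upper quartile factors ran from 0.788 (resistant library 0) to 1.13 (parental library 1), and the sums without CYP4F overlap once divided by them. A difference outside CYP4F therefore depends on the scaling. The leading member was CYP4F8 in every parental library, with 27.7%, 28.9% and 32.5% of the sum. In every resistant library it was CYP20A1, with 23.1%, 25.5% and 23.4%.

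Of the 32 members tested, 5 were higher and 12 lower in resistant cells, and 15 did not pass the threshold. The share called was 53.1%, beside 44.4% of all genes tested (22.1% higher and 22.3% lower). Among members the share called lower stood above that background and the share called higher stood below it, and no test was made on the list. The values of the groups did not overlap for 22 of the 32 members (68.8%), beside 54.8% of all genes tested. The median log2 fold change was -0.62 over the members, with 13 above 0 and 19 below, and -0.05 over all genes. An at least 2-fold change was called for 4 members upward and 9 downward. An exact permutation test of a single gene could not have gone below p = 0.1 with 3 libraries against 3.

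**Figure D1:**
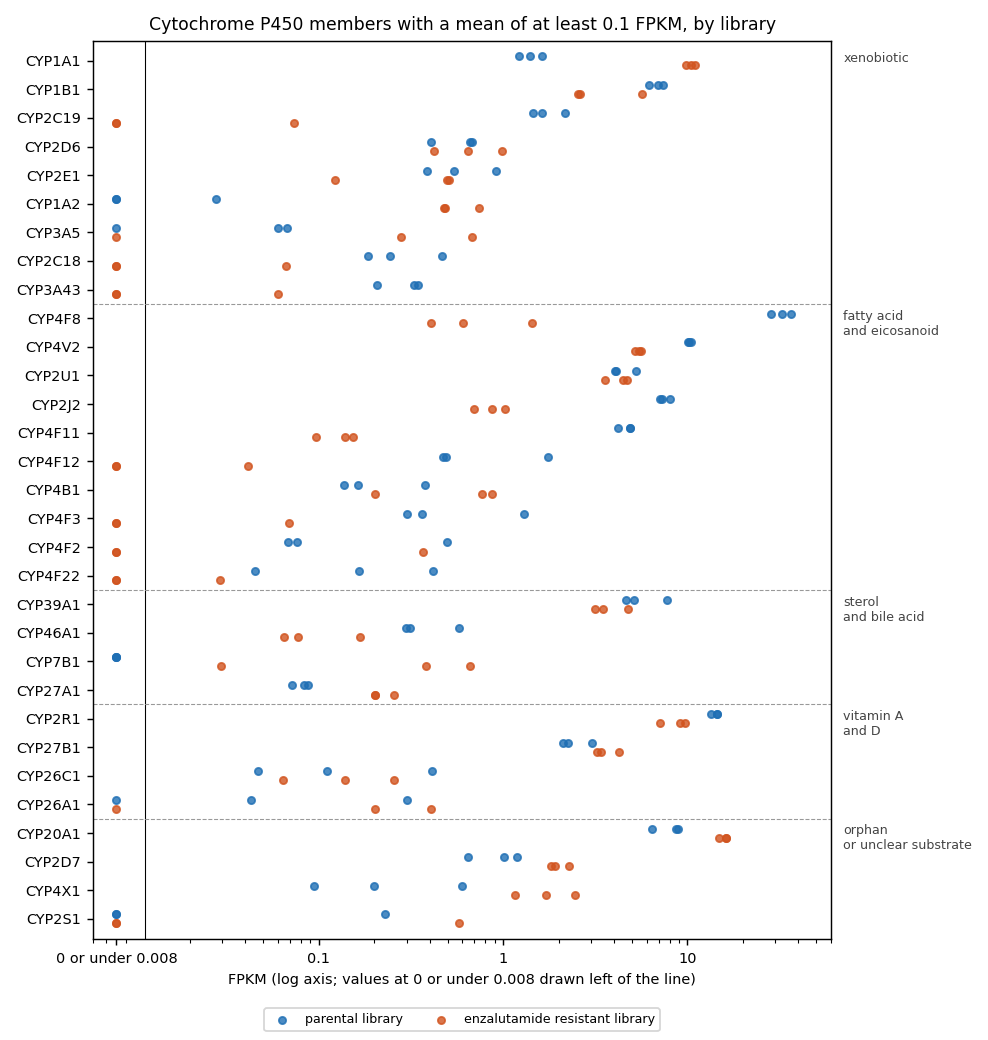
FPKM of 31 tested members in each library, on a log axis and grouped by role, with values at 0 or under 0.008 drawn left of the line. Blue points are the 3 parental and orange points the 3 enzalutamide resistant libraries. CYP4F8 lies between 28.3 and 36.5 FPKM in parental and between 0.407 and 1.44 FPKM in resistant libraries, while CYP1A1 lies between 1.23 and 1.63 FPKM in parental and between 9.84 and 10.9 FPKM in resistant libraries.

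Among the 17 members that act on drugs and other foreign compounds, 10 were tested, of which 2 were higher, 5 lower and 3 not called. The rises were in the CYP1A pair, and the falls described here were in CYP1B1, CYP2C18, CYP2C19 and CYP3A43. CYP1A1, which oxidises polycyclic aromatic hydrocarbons, was at 1.40, 1.63 and 1.23 FPKM in parental cells and at 10.4, 10.9 and 9.84 FPKM in resistant cells. Every resistant library was above every parental library, and the log2 fold change was 2.80 (SE 0.17, adjusted p = 6.36e-05). CYP1A2, best known for clearing caffeine, was listed at 0, 0 and 0.0277 FPKM in parental cells and at 0.481, 0.482 and 0.743 FPKM in resistant cells. It too was higher without overlap, by 2.60 (SE 0.42, adjusted p = 0.00300), although its resistant level was under 1 FPKM. CYP1B1, which hydroxylates oestradiol and activates carcinogens, went the other way. It was at 6.90, 6.18 and 7.34 FPKM in parental cells and at 2.62, 2.55 and 5.70 FPKM in resistant cells, with a log2 fold change of -0.99 (SE 0.33, adjusted p = 0.0486). Resistant library 2 lay close to the parental range, and the CYP1B1 call did not hold in 11 of 15 alternatives. Without resistant library 0 or 1 the adjusted p was 0.171 and 0.157, and without parental library 0, 1 or 2 it was 0.137, 0.107 and 0.150. CYP1B1 also shares 10.3% of its 50-base windows with the antisense gene CYP1B1-AS1, which went from 0.122, 0.186 and 0 FPKM to 1.88, 3.19 and 1.77 FPKM. How the authors' counting used strand is not given in the sources used here, and the part of the antisense reads in the CYP1B1 values was not tested.

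The tested CYP2C genes described here, CYP2C18 and CYP2C19, were lower in resistant cells. CYP2C19, which activates clopidogrel, was at 1.62, 1.45 and 2.18 FPKM in parental cells and was listed at 0, 0.0735 and 0 FPKM in resistant cells. Its log2 fold change was -3.92 (SE 0.41, adjusted p = 0.000535). CYP2C18, a member with little known activity, was low throughout, at 0.184, 0.465 and 0.244 FPKM in parental cells against 0.0661, 0 and 2.12e-05 FPKM in resistant cells. Its fall of -1.69 (SE 0.50, adjusted p = 0.0345) missed the threshold without resistant library 1 and without resistant library 2, each with an adjusted p of 0.0584. CYP2C18 and CYP2C19 share 39.1% and 35.6% of their windows with other genes, mainly an overlapping transcript unit that runs through both, so that reads could be split among them. That unit was at 0, 0.0119 and 0 FPKM in parental cells and at 0.0880, 1.90e-06 and 0.0606 FPKM in resistant cells.

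CYP2C8 and CYP3A4, the main liver enzymes for enzalutamide, did not reach the level for testing. CYP2C8 was listed at 0, 0 and 0.0460 FPKM in parental cells and at 0.153, 0 and 0.287 FPKM in resistant cells, with overlapping groups. CYP3A4 was listed at 0.0246 FPKM in parental library 0 and at 0 in the other 5 libraries. CYP3A43, a minor enzyme of the CYP3A subfamily, was lower in resistant cells. It was at 0.208, 0.346 and 0.329 FPKM in parental cells and at 0, 0 and 0.0602 FPKM in resistant cells, a log2 fold change of -1.73 (SE 0.46, adjusted p = 0.0223). CYP3A5, the other tested member of that subfamily, gave 0.0672, 0 and 0.0599 FPKM against 0.280, 0 and 0.679 FPKM and was not called (adjusted p = 0.3000). Resistant library 1 decided this, since without it the adjusted p was 0.0335 and the log2 fold change 1.97.

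CYP2D6, which handles many antidepressants and opioids, overlapped between the groups at 0.408, 0.683 and 0.661 FPKM against 0.420, 0.645 and 0.987 FPKM (adjusted p = 0.782). Its near copy CYP2D7, counted here among members of unclear substrate, was at 0.644, 1.18 and 1.01 FPKM in parental cells and at 1.91, 1.82 and 2.27 FPKM in resistant cells. The CYP2D7 groups did not overlap, with a log2 fold change of 1.04 (SE 0.30, adjusted p = 0.030). The CYP2D7 call was lost when resistant library 0, 1 or 2 was left out (adjusted p = 0.0861, 0.0713 and 0.1003) and without parental library 0 or 2 (0.0645 and 0.0656). CYP2D6 shares 43.0% of its 50-base windows with other genes and CYP2D7 shares 32.5% with CYP2D6, so the values of both depend on how reads were divided. CYP2E1, which oxidises ethanol, was at 0.386, 0.920 and 0.539 FPKM against 0.498, 0.122 and 0.511 FPKM and was not called (adjusted p = 0.378).

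The fatty acid and eicosanoid enzymes held the largest falls. Of these 12 members 10 were tested, 6 were lower and 4 were not called. CYP4F8, a hydroxylase of prostaglandins known from the seminal vesicles and prostate, had the highest level of any member in parental cells. It was at 28.3, 32.5 and 36.5 FPKM there and at 1.44, 0.608 and 0.407 FPKM in resistant cells. The log2 fold change was -5.30 (SE 0.41, adjusted p = 0.000154), the largest in size among the members. CYP4F11, which hydroxylates long fatty acids and vitamin K, was at 4.20, 4.91 and 4.86 FPKM in parental cells and at 0.0973, 0.138 and 0.154 FPKM in resistant cells. Its log2 fold change was -4.38 (SE 0.27, adjusted p = 6.88e-05), again with no overlap.

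CYP4F12, which acts on arachidonic acid and some antihistamines, was at 0.471, 1.75 and 0.491 FPKM in parental cells and at 0, 0.0415 and 0 FPKM in resistant cells. It was lower by a log2 fold change of -2.93 (SE 0.59, adjusted p = 0.00782). CYP4F3, which inactivates leukotriene B4, was at 0.364, 0.301 and 1.2996 FPKM against 0.0692, 0 and 0 FPKM. The CYP4F3 value of -2.42 (SE 0.62, adjusted p = 0.020) passed, but not without resistant library 1 (0.0613) or resistant library 2 (0.0634). CYP4F2, which breaks down vitamin K, was at 0.0680, 0.494 and 0.0764 FPKM against 0.367, 0 and 0 FPKM, and the groups overlapped (adjusted p = 0.573). CYP4F2 shares 17.9% of its windows with other genes, nearly all with CYP4F3. CYP4F22, an enzyme of skin barrier lipids, was at 0.0450, 0.165 and 0.416 FPKM against 0.0292, 0 and 0 FPKM. It was not called over all 6 libraries (adjusted p = 0.124), while without parental library 0 the adjusted p was 0.0333 with a log2 fold change of -1.76.

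Outside CYP4F, CYP2J2, which makes epoxides of arachidonic acid, was at 7.24, 7.07 and 8.01 FPKM in parental cells and at 0.695, 1.02 and 0.872 FPKM in resistant cells. The groups were well apart, with a log2 fold change of -2.98 (SE 0.21, adjusted p = 0.000106). CYP4V2, a fatty acid hydroxylase mutated in Bietti crystalline dystrophy, had a smaller fall with little spread. It was at 10.2, 10.1 and 10.4 FPKM in parental cells and at 5.22, 5.58 and 5.43 FPKM in resistant cells, a log2 fold change of -0.91 (SE 0.11, adjusted p = 0.000963). CYP2U1, a fatty acid hydroxylase of wide expression, was at 4.08, 5.27 and 4.04 FPKM against 4.71, 3.59 and 4.46 FPKM. Its groups overlapped and its log2 fold change was -0.07 (SE 0.19, adjusted p = 0.805). CYP4B1, which acts on short fatty acids and plant toxins, was at 0.138, 0.163 and 0.377 FPKM against 0.771, 0.201 and 0.868 FPKM and was not called (adjusted p = 0.209).

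**Figure D2:**
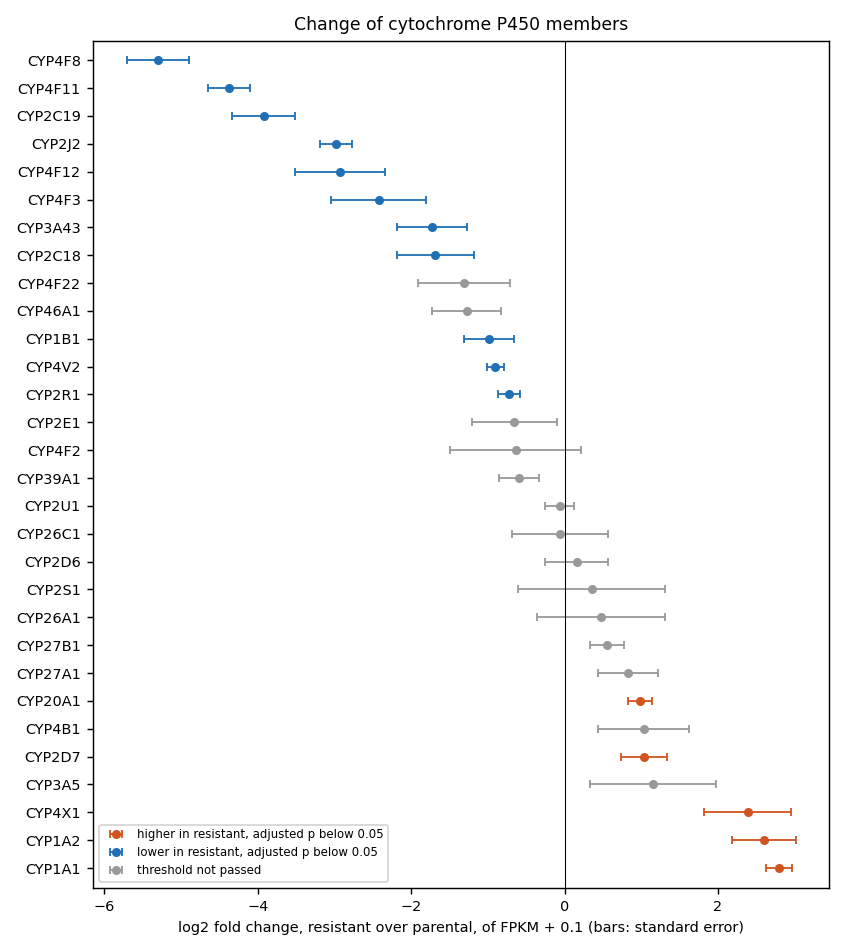
Log2 fold change (resistant over parental, FPKM + 0.1) of 30 tested members, with bars for the standard error, in order of size. Blue points are members called lower, orange points members called higher and grey points members that did not pass an adjusted p of 0.05. CYP7B1 is left out because it was listed at 0 in every parental library. CYP4F8 lies lowest at -5.30 and CYP1A1 highest at 2.80.

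None of the 4 tested sterol and bile acid enzymes passed the threshold in limma, and at an unadjusted p below 0.05 there were 2, CYP46A1 and CYP7B1. CYP39A1, which acts on brain-derived oxysterols, was at 5.12, 7.76 and 4.66 FPKM against 3.15, 4.75 and 3.48 FPKM, with overlap (adjusted p = 0.109). CYP46A1, the enzyme that lets cholesterol leave neurons, was at 0.580, 0.297 and 0.311 FPKM against 0.168, 0.0651 and 0.0768 FPKM. The CYP46A1 groups did not overlap, but the adjusted p was 0.0609, and without resistant library 0 it was 0.0334. CYP27A1, which oxidises the side chain of cholesterol in mitochondria, was at 0.0836, 0.0872 and 0.0716 FPKM against 0.203, 0.257 and 0.203 FPKM. Here too the groups did not overlap while the adjusted p was 0.139, and it was 0.0340 without resistant library 0. CYP7B1, an oxysterol hydroxylase, was listed at 0 in every parental library and at 0.0297, 0.382 and 0.659 FPKM in resistant cells (adjusted p = 0.0842). CYP7A1, the rate-limiting enzyme of bile acid synthesis, and CYP8B1, which sets the share of cholic acid, were too low for testing.

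Of the 6 vitamin A and D enzymes, 4 were tested and 1 was called. CYP2R1, which starts the activation of vitamin D, was at 14.5, 13.5 and 14.5 FPKM in parental cells and at 9.09, 7.07 and 9.66 FPKM in resistant cells. It was lower without overlap, by a log2 fold change of -0.72 (SE 0.15, adjusted p = 0.00774), a call that upper quartile scaling of the libraries took away (0.1004). CYP27B1, which completes the activation, was at 3.05, 2.24 and 2.11 FPKM against 3.39, 4.25 and 3.25 FPKM. The CYP27B1 libraries did not overlap, but its log2 fold change of 0.55 (SE 0.22) did not pass (adjusted p = 0.0918). CYP24A1, which breaks active vitamin D down, was listed at 0.428 FPKM in parental library 2, at 0.0511 FPKM in resistant library 1 and at 0 in the others. The retinoic acid hydroxylases CYP26A1 and CYP26C1 were low and overlapped. CYP26A1 was listed at 0, 0.301 and 0.0429 FPKM against 0.408, 0 and 0.202 FPKM (adjusted p = 0.671), and CYP26C1 at 0.0468, 0.414 and 0.111 FPKM against 0.0643, 0.138 and 0.257 FPKM (adjusted p = 0.950). CYP26B1, the other retinoic acid hydroxylase, reached at most 0.136 FPKM.

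Among the 8 members of unclear substrate, 4 were tested, 3 were higher and 1 was not called. Besides CYP2D7, these were CYP20A1 and CYP4X1. CYP20A1 is an orphan enzyme without an accepted substrate, and was at 8.70, 8.88 and 6.42 FPKM in parental cells and at 14.8, 16.2 and 16.2 FPKM in resistant cells. It was higher without overlap, by a log2 fold change of 0.98 (SE 0.15, adjusted p = 0.00279). CYP4X1, which can oxidise the endocannabinoid anandamide, was at 0.0941, 0.602 and 0.198 FPKM in parental cells and at 1.16, 2.46 and 1.72 FPKM in resistant cells. Its log2 fold change was 2.39 (SE 0.57, adjusted p = 0.0148), and the adjusted p was 0.0642 and 0.0607 without resistant library 1 or 2 and 0.0612 without parental library 2. CYP2S1, a dioxin-inducible enzyme, was above 0 in 1 library of each group, at 0.228 and 0.580 FPKM (adjusted p = 0.794).

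The remaining 21 members were not tested, and 7 of them (CYP3A7, CYP4A22, CYP11B2, CYP27C1, CYP2F1, CYP21A2 and CYP2A6) were listed at 0 in all 6 libraries. The other 14 were above 0 in at least 1 library and reached at most 0.428 FPKM. They were CYP2A13, CYP2B6, CYP2C8, CYP3A4, CYP4A11, CYP7A1, CYP8B1, CYP24A1, CYP26B1, CYP2A7, CYP2W1, CYP4Z1, CYP11B1 and CYP19A1. The 4 steroid hormone members were all in this group, with CYP19A1, the aromatase that makes oestrogens, at most at 0.0823 FPKM and CYP11B1, the last step to cortisol, at most at 0.0366 FPKM. CYP4Z1, a fatty acid hydroxylase known from breast, was at 0.309, 0.120 and 0.0865 FPKM in parental cells and at 0 in all resistant libraries. In these libraries 1 read on a transcript of 2000 bases was worth between 0.0270 and 0.0407 FPKM, so such values rest on few reads, and a value of 0 does not show that a gene was silent.

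Several members sit side by side in the genome. The genes around them were read as well, a comparison chosen after the values had been seen. The CYP4F genes span chr19:15508525-15934867 (426 kb, GRCh38, GENCODE v44) in the order CYP4F22, CYP4F8, CYP4F3, CYP4F12, CYP4F2 and CYP4F11. All 6 were tested and 4 were lower. Of the 9 other protein-coding genes tested within 250 kb of them, 5 were lower and 4 were not called, and their median log2 fold change was -1.42. Over all genes tested, 22.3% were called lower and 22.1% higher, with a median of -0.05. PGLYRP2, a peptidoglycan-cleaving enzyme next to CYP4F22, had a log2 fold change of -5.10 (SE 0.46, adjusted p = 0.000298). WIZ, RASAL3 and HSH2D, also called lower, had log2 fold changes of -1.42, -1.79 and -2.14. Around the CYP2C genes, 3 of 4 tested neighbours were higher and 1 was lower, with a median of 1.25. The CYP1A pair lies at chr15:74719542-74756607 (37.1 kb), where 3 of 13 tested neighbours were higher and 6 lower, with a median of -0.29.

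**Figure D3:**
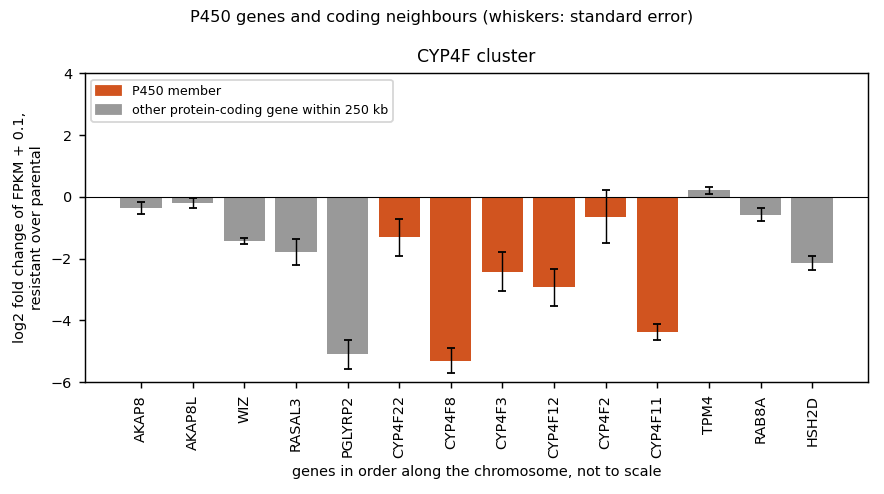
Log2 fold change (resistant over parental, FPKM + 0.1) of tested genes in chromosomal order, not to scale, around the CYP4F genes, with whiskers for the standard error. Orange bars are the 6 P450 members and grey bars 8 other protein-coding genes within 250 kb. PGLYRP2, beside the CYP4F genes, reaches -5.10, close to CYP4F8 at -5.30.

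Start-site windows, from 250 bases before to 50 after the start, were held by RefSeq for 36 of the 53 members, with 49 windows in all. The AHR core GCGTG, on either strand, was in 11 of the 49 (22.4%), beside 36.5% of all 35116 windows. The half-site AGAACA of the androgen receptor, on either strand, was also in 11 of 49 (22.4%), beside 14.8% of all windows. Among the members that rose, CYP20A1 held AHR cores 91 and 39 bases before 1 of its 2 annotated starts, and CYP4X1 held them 78 and 44 bases before 1 of its 2. Of the members that fell, CYP2J2 held an AHR core 134 bases before its start and CYP4V2 held 1 in the bases after it. No window was available for some called members, such as CYP1B1, CYP2C18, CYP4F12 and CYP2D7, so these were not searched. The androgen receptor half-site was in windows of CYP2C19, CYP4F3 and CYP4V2, which fell, and before the other start of CYP4X1, which rose. These half-sites lay 168, 6, 159 and 156 bases before the starts. These are matches of letters and not measured binding.

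Genes that serve the P450 enzymes were followed in a list of 39, of which 35 were tested, 11 were higher, 16 lower and 8 not called. The share of called genes was 77.1%, beside 44.4% of all genes, a background that was not matched for level. Among the 14 members with a mean of at least 1 FPKM, 78.6% were called, beside 53.1% of all members tested. The share of all genes called at that level was not worked out, so the 78.6% has no background of its own. Under upper quartile scaling of the libraries the same list gave 12 higher and 11 lower. The list has 5 groups, beginning with 8 genes of electron transfer, of which 3 were higher and 4 lower. POR, the common electron donor, was the one not called, at 71.6, 80.9 and 91.9 FPKM in parental cells and at 75.1, 70.4 and 74.8 FPKM in resistant cells. The POR groups overlapped, with a log2 fold change of -0.14 (SE 0.10, adjusted p = 0.313). CYB5A, cytochrome b5, which speeds some P450 reactions, was at 328, 304 and 331 FPKM in parental cells and at 79.0, 74.0 and 72.8 FPKM in resistant cells. It was lower by a log2 fold change of -2.09 (SE 0.07, adjusted p = 7.83e-06). The mitochondrial pair moved in opposite directions. FDX1 was at 4.91, 6.11 and 4.29 FPKM against 7.83, 8.69 and 8.64 FPKM, a log2 fold change of 0.72 (SE 0.17, adjusted p = 0.0135, or 0.0504 without resistant library 2). FDXR was at 24.5, 20.9 and 22.4 FPKM against 13.7, 14.9 and 15.7 FPKM, a log2 fold change of -0.61 (SE 0.10, adjusted p = 0.00403, or 0.0808 under upper quartile scaling).

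Of the 17 regulators of CYP genes, 14 were tested, 7 were higher and 4 lower. AHR was at 2.91, 1.52 and 2.34 FPKM in parental cells and at 6.27, 5.20 and 9.46 FPKM in resistant cells. It was higher without overlap, by a log2 fold change of 1.59 (SE 0.32, adjusted p = 0.00804). CYP1A1 and CYP1A2 went in the same direction and CYP1B1 in the other (-0.99). A link between AHR and these genes was not tested. AHRR, the repressor that AHR induces, was at 0.855, 0.918 and 0.295 FPKM against 1.27, 2.22 and 3.29 FPKM. Its log2 fold change of 1.60 (SE 0.52, adjusted p = 0.0451) was called over all libraries, while leaving out any 1 library gave adjusted p-values from 0.0569 to 0.157. Of the 2 AHR targets outside the family, 1 was lower and 1 was not called. NQO1, a quinone reductase that other pathways also induce, was at 243, 209.8 and 247 FPKM in parental cells and at 40.6, 49.1 and 35.9 FPKM in resistant cells. It was lower by a log2 fold change of -2.48 (SE 0.13, adjusted p = 4.05e-05), and TIPARP, which modifies proteins with ADP-ribose, had 0.41 (SE 0.17, adjusted p = 0.0937).

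Nuclear receptors among the regulators went both ways. RXRA, the common partner of the vitamin, bile acid and drug receptors, was at 40.8, 40.3 and 39.8 FPKM in parental cells and at 7.80, 8.13 and 8.78 FPKM in resistant cells. It was lower by a log2 fold change of -2.28 (SE 0.09, adjusted p = 1.48e-05). VDR, the vitamin D receptor, was lower by -1.298 (SE 0.11) and the retinoic acid receptor gene RARB by -1.14 (SE 0.20), while RARG, another retinoic acid receptor gene, was higher by 1.301 (SE 0.10). NR1H4, the bile acid receptor, was listed at 0 in all parental libraries and at 3.42, 1.65 and 1.77 FPKM in resistant libraries (adjusted p = 0.000318). HNF4A, a nuclear receptor of liver, was likewise listed at 0 in parental libraries and at 0.348, 0.439 and 0.686 FPKM in resistant libraries (adjusted p = 0.00405). The drug receptors NR1I2 and NR1I3 and the corepressor NR0B2 were too low for testing, and NR1I2 reached at most 0.121 FPKM.

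Of the 10 genes of haem synthesis and breakdown, 6 were lower, 1 was higher and 3 were not called. HMOX1, the inducible enzyme that degrades haem, was at 15.3, 13.1 and 19.1 FPKM in parental cells and at 3.01, 3.30 and 3.32 FPKM in resistant cells. It was lower by a log2 fold change of -2.25 (SE 0.17, adjusted p = 0.000143), and HMOX2, its constitutive relative, by -1.07 (SE 0.13). TBXAS1, the thromboxane synthase and a P450 with another symbol, was at 7.57, 8.16 and 9.49 FPKM against 3.69, 3.46 and 3.94 FPKM. It was lower by -1.16 (SE 0.15, adjusted p = 0.00120), and PTGIS, the prostacyclin synthase, was not tested.

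**Figure D4:**
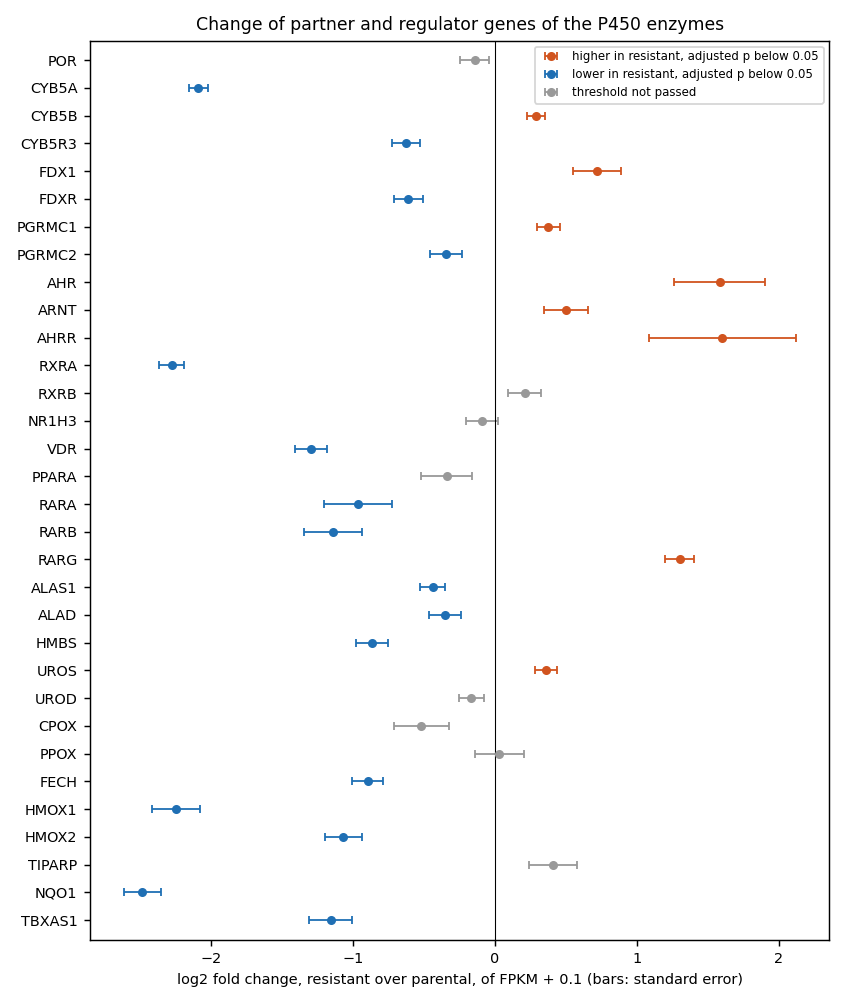
Log2 fold change (resistant over parental, FPKM + 0.1) of 32 tested partner and regulator genes with a value above 0 in both groups, with bars for the standard error. Orange points are called higher, blue points called lower and grey points not called at an adjusted p of 0.05. AHR lies at 1.59 and NQO1 at -2.48, while POR lies near 0 at -0.14.

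The labels were checked against markers of cell types. All 9 prostate luminal markers were tested, 2 were higher and 6 lower, and their summed level was 4146 to 4910 FPKM in parental and 1171 to 1251 FPKM in resistant libraries. Because many members are liver enzymes, 7 hepatocyte markers were read as well. Of these 4 were tested, 2 were higher and 1 lower, and their sum was 7.22 to 9.25 FPKM in parental and 61.1 to 67.5 FPKM in resistant libraries. ALB, the gene of albumin, accounted for most of that sum, at 57.0, 53.9 and 49.5 FPKM in resistant cells. CPS1 was also higher, at 3.44, 6.77 and 6.17 FPKM in parental and 9.89, 9.73 and 11.3 FPKM in resistant cells. TTR was lower, at 1.99, 1.77 and 1.16 FPKM against 0.388, 0.163 and 0.0907 FPKM. APOA1 was not called, SERPINA1 was too low for testing, and APOB and FGB were listed at 0 in all 6 libraries. The part of these shifts in the CYP values was not tested. Of the 5 fibroblast markers 2 were higher (sum 6.65 to 8.92 against 8.26 to 14.7 FPKM), of the 5 leukocyte markers 1 was higher (0.0879 to 0.611 against 0.229 to 1.45 FPKM, with 1 listed at 0 throughout) and of the 3 endothelial markers 1 was lower (0.568 to 1.14 against 0.0946 to 0.420 FPKM). The depth was estimated from the smallest steps of the values at 13600000 to 20600000 reads in parental and 14300000 to 17500000 reads in resistant libraries. Between 21956 and 24080 genes were above 0 in the parental libraries and between 23360 and 27153 in the resistant libraries, with the most in resistant library 0, which also had the most members above 0 (40 of 53).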

How the data were processed

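The 6 RNA-Seq libraries (3 C4-2B parental, 3 C4-2B enzalutamide resistant) were grouped by the sample labels. Libraries were made from total RNA with a stranded kit and read as single ends of 50 bp. Trimming by the authors used TrimGalore, after which they aligned with STAR to GRCh38 and estimated expression with Cufflinks on a GENCODE annotation, and the values they deposited were taken as FPKM from these methods, since the table names no unit. The submitters' processing notes name mm10, Trimmomatic 0.27 and FastQC 0.10.1 as well, while the gene identifiers in the table are human. Read counts are not part of the table, so no count test and no counting interval could be given. An exact 0 can be a failed estimate, so no mean is given for a gene in a group with a 0, and no fold change against a group listed at 0 throughout.

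FPKM was compared as log2(FPKM + 0.1) in limma 3.58.1 (R 4.3.3), with a mean-variance trend, over 24468 genes (mean FPKM of 0.1 or more), two-sided, with Benjamini-Hochberg adjustment over all of them and a threshold of 0.05. The fit was tested on simulated data. No 2 libraries held identical values. Depth was estimated by assuming fragments of 200 bases. Shared sequence was the share of 50-base windows of a gene's longest protein-coding GENCODE v44 transcript that were found in transcripts of other genes. Start-site sequences came from RefSeq (GRCh38.p14). Tables were handled with Python 3.11.15 and pandas 2.3.3, alignments made with biopython 1.88 and figures drawn with matplotlib 3.10.9.

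Some genes that these rules cover are counted but not reported here. Otherwise the tested members are named, and of the partner genes those called with an at least 2-fold change plus POR, FDX1, FDXR, AHR and AHRR. NR1I2, NR1I3, NR0B2, PTGIS, TIPARP, ALB, APOA1, APOB, CPS1, FGB, SERPINA1, TTR and the neighbours were named after their values were seen. Members, lists, roles and tests were chosen with earlier results of these data known. Of 40 partner genes listed, 1 was not matched in the table. The alternatives covered the pseudocount, the filter, the scaling, the variance trend, a replicate block, each library left out and a 2-fold threshold.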

Additional observations from a re-analysis of the deposited data

How the results depend on the processing

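The 12 members called lower fell to 7 when a mean of at least 1 FPKM was required, where fewer members are tested, and ranged from 9 to 12 with 1 library left out. The 5 members called higher ranged from 3 to 6, with 3 without resistant library 2 or parental library 2. With 1 FPKM as the pseudocount the members' median log2 fold change was -0.17, and it ran from -0.70 to -0.20 with 1 library left out (-0.20 without parental library 1 and -0.22 without resistant library 1). Partner genes called higher were 6 without the variance trend and 6 at an at least 2-fold change (8 to 10 with 1 library left out), and those called lower were 8 at 2-fold (13 to 16). Over all genes the calls ran from 4546 to 4990 higher and from 4534 to 5162 lower with 1 library left out, and 3320 were lower at 2-fold. The cause of these shifts was not tested. In some of these settings fewer genes or libraries entered, or a fold threshold was added.

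Upper quartile scaling moved the median of all genes from -0.05 to 0.13 and their split from 5405 higher and 5463 lower to 5917 and 3658 (49.7% to 61.8% higher), and that of the partner genes from 40.7% to 52.2% higher. The members' split was 5 higher and 9 lower under it. Of the 17 called members, 10 kept their call and sign in every alternative (among them CYP1A1, CYP1A2, CYP20A1, CYP2C19, CYP2J2, CYP4F8, CYP4F11, CYP4F12 and CYP4V2), and 4 of 14 uncalled members passed in at least 1. The fold changes of 5 uncalled members (CYP26A1, CYP26C1, CYP2D6, CYP2S1 and CYP2U1) and 4 uncalled partner genes (NR1H3, POR, PPOX and UROD) changed sign in at least 1 alternative, and those of called genes did not.

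Same-numbered libraries did not deviate together (correlations of 0.0080, 0.017 and -0.0030), and parental library 2 correlated best with resistant library 0 (0.020), so the numbers were not taken as pairs. With a replicate block, 4 members were higher and 9 lower, and 4670 genes were higher and 4793 lower in all. CYP2C18, CYP2D7, CYP3A43 and CYP4F3 were then not called (adjusted p = 0.0931, 0.0624, 0.0618 and 0.0500).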
